A study of Homo sapiens with 6 samples.

Results

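The genes described here encode the nuclear subunits of respiratory complexes I to V, cytochrome c, and the factors that assemble these complexes. They were taken by gene symbol from an array platform annotation, leaving out pseudogenes and antisense transcripts, and the probe set with the highest mean signal stood for each gene. This gave 103 genes of 22465 with a probe set of their own: 74 subunits, 27 assembly factors, the ATP synthase inhibitor ATP5IF1 and cytochrome c, CYCS. A further 10 probe sets that name a gene of these complexes beside another symbol, among them those of COX7C, NDUFB8, NDUFS8, NDUFA13 and UQCRH, were not used. RNA was measured in OV2008 cells, an established human line labelled as ovarian cancer, 3 days after transfection with a miR-328-3p mimic (miR328, 3 arrays) or with a negative control microRNA (NC, 3 arrays), from 100 ng of total RNA an array. Both groups were transfected, no untransfected cells were analysed here, and nothing in the labels says that arrays of 1 group came from separate cultures, so the p-values measure a spread that may be technical. Titles and source names set the groups, although the description given with the 3 miR328 samples names the control.

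Values are on a log2-like scale whose base is inferred, and the array medians lay between 4.14 and 4.17 in miR328 and between 4.10 and 4.14 in NC arrays. Over all transcript clusters, arrays of 1 group correlated at 0.9953 to 0.9967 and arrays of different groups at 0.9925 to 0.9946. The epithelial markers EPCAM, KRT8, KRT18, KRT19 and CDH1 had values from 11.07 to 15.06, and 4 of these 5 rose in miR328 arrays. Over all genes tested 7.21% rose. Among those with a mean signal of 10 or more, a cutoff chosen after the values were seen, 18% rose. Squamous markers were mixed: KRT5 lay between 16.95 and 17.1, KRT14 between 5.09 and 5.55 and CDKN2A between 8.09 and 8.24. KRT17 and TP63 were not analysed here. The 5 markers of Müllerian and ovarian carcinoma (PAX8, WT1, MUC16, SOX17 and FOLR1) lay between 3.38 and 5.80, so the labelled ovarian origin was not visible in them. Among 3 endothelial markers CDH5 fell, from 5.46 to 5.52 in NC arrays to 4.69 to 4.86 in miR328 arrays. VWF lay between 3.63 and 3.72 over both groups, and PECAM1, at 2.76 to 3.08, was not tested. Their summed linear signal was 46.6 to 50.5 in miR328 and 63.2 to 66.7 in NC arrays, a difference carried by CDH5. The part of CDH5 in the results was not tested.

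The respiratory chain moves electrons from NADH through complex I, or from succinate through complex II, to ubiquinone, complex III, cytochrome c and complex IV, which reduces oxygen. Complexes I, III and IV pump protons, and complex V, the ATP synthase, uses the gradient to make ATP. A few core subunits are encoded in mitochondrial DNA and were not analysed here. The others come from the nucleus and are built in by dedicated assembly factors that supply iron-sulphur clusters, heme or copper. The transfected microRNA is shown because its seed, the part that pairs with target mRNAs, defines the treatment. The mature sequence from RefSeq (GRCh38.p14, chr16:67202327-67202348, minus strand) has the seed, bases 2 to 8, in capitals.
hsa-miR-328-3p: cUGGCCCUcucugcccuuccgu

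Respiratory chain transcripts were lower in miR328 arrays across all 5 complexes, mostly by small amounts. Of 102 members tested, 35 fell (34.3%), none rose and 67 did not pass a limma adjusted p of 0.05, computed over all probe sets tested. Over all 18836 genes tested, 18.0% changed, as 10.8% fell and 7.21% rose. Members were brighter than most genes, with a median signal of 9.43 against 5.70 for all genes tested. A split at a mean signal of 10 was chosen after the values were seen. At 10 or more, 18 of 40 members (45%) fell, against 23.5% of all genes in that range. In bulk RNA, fewer cells of a kind and less RNA per cell cannot be told apart. Without a threshold, 89 members (87.3%) had a log2 difference (miR328 minus NC) below zero, against 47.2% of all genes, and the median was -0.19 for members and 0.01 for all genes. All 3 miR328 arrays lay below all 3 NC arrays for 64 members, against 22.4% of all genes, and above them for 3 members (COX17, COX4I2 and SDHAF2), against 19.2% of all genes. Only COX6A1 fell at least 2-fold, 6 members fell by 0.5 or more on the log2 scale, and the other 29 that passed fell by less. Leaving out 1 array lowered the number that fell to between 22 and 31, with 22 both without NC array 3 and without miR328 array 2. The share of all genes that fell was also lower in these fits, at 6.84% and 6.75%, against 10.8% with all arrays. Of the 35 members, 21 passed whichever array was left out, 17 subunits and 4 assembly factors.

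**Figure D1:**
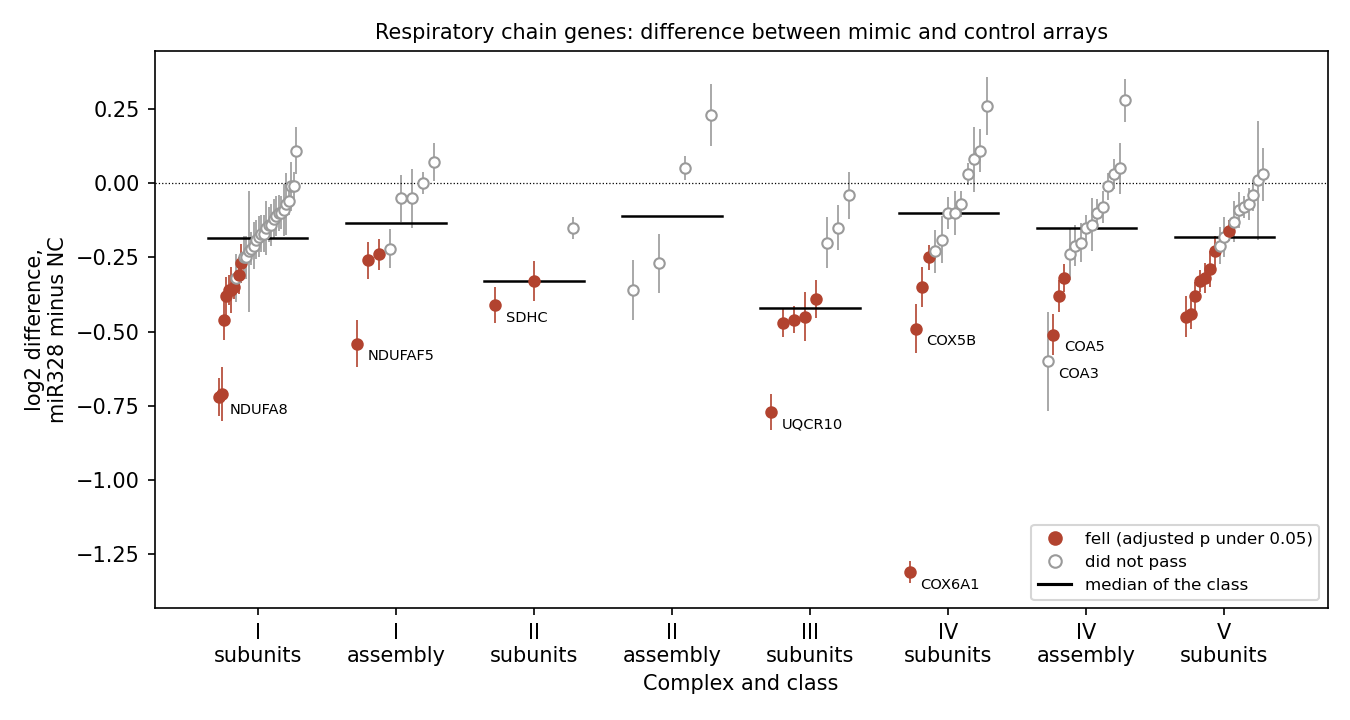
Log2 difference (miR328 minus NC, y axis) with its standard error for each tested subunit and assembly factor, by complex and class (x axis). Filled points fell at an adjusted p under 0.05, open points did not pass, and bars are class medians. No filled point lies above zero, and COX6A1 lies lowest at -1.31.

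Promoters of these genes were compared because nuclear respiratory genes are known to be driven by a small set of factors, among them NRF1, the ETS factor GABPA, YY1 and the ERR receptors. RefSeq promoter sequences, from 250 bases before to 50 after each start, were found for 86 of the 103 members. On both strands, the letters CGCANGCG (the core of the NRF1 motif) occurred in 10 of 29 promoters of members that fell (34.5%), in 20 of 56 of members that did not pass (35.7%) and in 10.6% of all 27305 promoters in the table. With a G before and a C after this core the shares were 31% of members that fell, 21.4% of those that did not pass and 6.28% of all, so the order of the first 2 depended on the letters chosen. CCGGAAG (ETS) occurred in 41.4% of promoters of members that fell, 23.2% of those that did not pass and 10.7% of all. AANATGGCG (YY1) occurred in 13.8% of members that fell, 21.4% of those that did not pass and 3.37% of all. TNAAGGTCA (ERR) occurred in 3.45% of members that fell, 1.79% of those that did not pass and 0.963% of all. A match describes letters only and is no evidence of binding, and no difference between these shares was tested. The promoters of the members with the largest fall in complexes IV, III and I are shown with that of COX5A, a complex IV subunit at a log2 difference of 0.03, and capitals mark every match to these 4 motifs. COX5A was chosen after its values were seen and does not stand for the members that did not pass. For example, COX17 at 0.28 held an NRF1 core and an ETS match, whereas UQCRC2, which fell at -0.47, held none of the 4. COX6A1 (chr12:120437863-120438162, plus strand) held an NRF1 core, an ETS and a YY1 match, UQCR10 (chr22:29767119-29767418, plus strand) an NRF1 core and a YY1 match, NDUFA8 (chr9:122159730-122160029, minus strand) 3 NRF1 cores, 2 of them overlapping, and COX5A (chr15:74938024-74938323, minus strand) none, all in GRCh38.p14.
COX6A1: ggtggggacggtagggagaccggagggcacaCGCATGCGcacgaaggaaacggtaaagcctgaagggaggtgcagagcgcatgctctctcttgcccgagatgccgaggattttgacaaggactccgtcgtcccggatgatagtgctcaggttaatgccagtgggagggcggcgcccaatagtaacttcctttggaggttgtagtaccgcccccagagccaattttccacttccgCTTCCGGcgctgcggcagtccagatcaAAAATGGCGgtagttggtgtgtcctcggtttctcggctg
UQCR10: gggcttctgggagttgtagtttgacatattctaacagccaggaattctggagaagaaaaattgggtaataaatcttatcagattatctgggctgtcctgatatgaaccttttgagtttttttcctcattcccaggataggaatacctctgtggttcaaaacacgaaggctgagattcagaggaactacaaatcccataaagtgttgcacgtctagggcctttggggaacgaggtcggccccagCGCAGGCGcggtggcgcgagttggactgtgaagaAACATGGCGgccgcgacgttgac
NDUFA8: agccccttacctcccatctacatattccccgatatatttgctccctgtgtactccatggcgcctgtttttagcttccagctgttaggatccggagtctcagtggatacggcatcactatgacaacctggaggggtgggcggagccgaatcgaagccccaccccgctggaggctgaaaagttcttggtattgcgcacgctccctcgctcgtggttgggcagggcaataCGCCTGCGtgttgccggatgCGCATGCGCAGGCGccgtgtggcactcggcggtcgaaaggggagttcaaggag
COX5A: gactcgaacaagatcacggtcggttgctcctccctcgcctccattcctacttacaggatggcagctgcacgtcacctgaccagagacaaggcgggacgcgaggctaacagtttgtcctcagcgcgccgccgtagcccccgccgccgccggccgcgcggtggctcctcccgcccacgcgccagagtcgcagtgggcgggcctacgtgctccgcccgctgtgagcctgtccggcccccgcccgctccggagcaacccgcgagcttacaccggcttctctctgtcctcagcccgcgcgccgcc

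Complex I, the NADH dehydrogenase, is the largest of the complexes, with a matrix arm that carries electrons and a membrane arm that pumps protons. Of its 32 subunits tested, 9 fell (28.1%, against 10.8% of all genes), none rose and 23 did not pass. The median log2 difference was -0.19, and 31 of 32 lay below zero. In the membrane arm 7 of 17 accessory subunits fell, and in the matrix arm 1 of 9 accessory and 1 of 5 core subunits fell, but the arms had similar medians, -0.23 for membrane arm, -0.21 for matrix arm accessory and -0.14 for core subunits. The difference between the arms was not tested. NDUFA8, a membrane arm subunit facing the intermembrane space, had 11.36, 11.24 and 11.15 in miR328 arrays, against 12.02, 11.90 and 11.99 in NC arrays. Every miR328 value lay well below every NC value, and NDUFA8 was 1.65-fold lower (-0.72 ± 0.0646 SE, adjusted p = 0.00118). NDUFB7, a membrane arm subunit of the same fold, had 10.38, 10.42 and 10.25 in miR328 arrays, against 11.23, 10.91 and 11.03 in NC arrays, and was 1.64-fold lower (-0.71 ± 0.0904 SE, adjusted p = 0.00413). The NC arrays were more scattered here than for NDUFA8, without reaching the miR328 values.

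NDUFA1, a small membrane arm subunit needed for assembly, had 9.95, 9.70 and 9.82 in miR328 and 10.31, 10.23 and 10.29 in NC arrays (-0.46 ± 0.0684 SE, adjusted p = 0.00778). The groups were again apart. NDUFA2, an accessory subunit near the tip of the matrix arm, had 9.57, 9.49 and 9.64 in miR328 and 10.01, 9.85 and 9.98 in NC arrays (-0.38 ± 0.0634 SE, adjusted p = 0.0118), but an adjusted p of 0.0539 without NC array 3. The only core subunit that fell was NDUFS1, the largest of the iron-sulphur subunits of the matrix arm, at 10.70, 10.66 and 10.62 in miR328 and 11.00, 11.04 and 11.00 in NC arrays (-0.35 ± 0.0405 SE, adjusted p = 0.00275). It passed whichever array was left out, as did NDUFC1 at -0.36. NDUFA10 at -0.36, NDUFB6 at -0.31 and NDUFB10 at -0.27 also fell but were less secure. NDUFA10 had adjusted p of 0.0955 and 0.11 without NC arrays 2 and 3 and of 0.101 and 0.0829 without miR328 arrays 2 and 3. NDUFB6 had 0.0741, 0.0916 and 0.0614 without miR328 arrays 1, 2 and 3. NDUFB10 had 0.117 and 0.142 without NC arrays 2 and 3, and 0.0575, 0.131 and 0.108 without miR328 arrays 1, 2 and 3.

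Subunits of complex I that did not pass ranged from -0.32 (NDUFS4, adjusted p = 0.0543) to 0.11 (NDUFA3, adjusted p = 0.476). NDUFS5, at 14.66, 14.64 and 14.51 in miR328 and 14.63, 14.61 and 14.58 in NC arrays, stood at -0.01. Its groups overlapped throughout. The flavoprotein NDUFV1, which accepts electrons from NADH, stood at -0.14 and its partner NDUFV2 also at -0.14. NDUFB2 had 2 probe sets, at -0.23 (brighter, NC values from 8.14 to 8.96) and -0.18, neither of which passed.

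Among 8 assembly factors of complex I, 3 fell (37.5%, against 10.8% of all genes), none rose and 5 did not pass. Their median was -0.14. NDUFAF5, which modifies the core subunit NDUFS7 early in assembly, had 7.21, 7.22 and 7.10 in miR328 arrays, against 7.74, 7.58 and 7.82 in NC arrays. These groups did not overlap, and the log2 difference was -0.54 ± 0.0779 SE (1.45-fold lower, adjusted p = 0.00686). NDUFAF8, its binding partner, had 8.09, 8.11 and 8.16 in miR328 and 8.35, 8.43 and 8.30 in NC arrays (-0.24 ± 0.0534 SE, adjusted p = 0.0335). NDUFAF6, required for early steps of assembly, had 6.12, 6.18 and 6.26 in miR328 and 6.43, 6.42 and 6.49 in NC arrays (-0.26 ± 0.0622 SE, adjusted p = 0.0448). Both of these calls were lost whichever array was left out: adjusted p for NDUFAF8 were 0.0771, 0.0902 and 0.0616 without NC arrays 1, 2 and 3 and 0.109, 0.117 and 0.0605 without miR328 arrays 1, 2 and 3. For NDUFAF6 they were 0.0939, 0.0953 and 0.148 without the NC arrays and 0.133, 0.137 and 0.0567 without the miR328 arrays, in the same order. The 5 others ranged from -0.22 (NDUFAF1, adjusted p = 0.0867) to 0.07 (NDUFAF3).

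Complex II, succinate dehydrogenase, links the citric acid cycle to the chain and has no mitochondrially encoded subunit. Of its 3 subunits analysed here, the membrane anchors SDHC and SDHD fell (66.7%, against 10.8% of all genes). The flavoprotein SDHA did not pass, and SDHB was not analysed here. SDHC had 11.11, 10.96 and 10.93 in miR328 arrays, against 11.35, 11.45 and 11.41 in NC arrays (-0.41 ± 0.0613 SE, 1.33-fold lower, adjusted p = 0.0078). All miR328 values were below the NC values. SDHD had 13.43, 13.41 and 13.24 in miR328 and 13.78, 13.65 and 13.63 in NC arrays (-0.33 ± 0.067 SE, adjusted p = 0.0257), with adjusted p of 0.0608, 0.0614 and 0.06 without NC arrays 1, 2 and 3 and of 0.0662 and 0.051 without miR328 arrays 2 and 3. SDHA stood at 10.51, 10.56 and 10.55 in miR328 and 10.69, 10.68 and 10.70 in NC arrays. Its groups did not overlap, but the difference was small (-0.15, adjusted p = 0.0526). None of the 4 assembly factors of complex II passed, whereas 10.8% of all genes fell and 7.21% rose. With so few subunits and factors, whether these shares differ from those of all genes cannot be judged. SDHAF4, which helps to load flavinated SDHA, had the smallest p, with 6.23, 6.47 and 6.43 in miR328 and 6.58, 6.86 and 6.78 in NC arrays (-0.36 ± 0.101 SE, adjusted p = 0.0757). It passed without NC array 1 (adjusted p = 0.0489). SDHAF3 stood at -0.27, SDHAF2 at 0.05 and SDHAF1 at 0.23.

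Complex III, the cytochrome bc1 complex, had the lowest class median. Of 8 subunits tested, 5 fell (62.5%, against 10.8% of all genes), none rose and 3 did not pass. The median log2 difference was -0.42. UQCR10, a small accessory subunit, had 10.18, 10.14 and 10.05 in miR328 arrays, against 10.81, 10.91 and 10.98 in NC arrays. The groups were far apart relative to their spread, and UQCR10 was 1.71-fold lower (-0.77 ± 0.06 SE, adjusted p = 0.000711). UQCRC2, a core protein on the matrix side, had 15.07, 15.04 and 14.97 in miR328 and 15.56, 15.48 and 15.43 in NC arrays (-0.47 ± 0.0486 SE, adjusted p = 0.002). Its partner UQCRC1 had 9.76, 9.70 and 9.70 in miR328 and 10.13, 10.22 and 10.20 in NC arrays (-0.46 ± 0.0455 SE, adjusted p = 0.00163). Both core proteins thus fell by similar amounts with no overlap of groups. CYC1, the electron carrier cytochrome c1, fell by 0.39 (adjusted p = 0.0113). UQCR11, a small subunit near the iron-sulphur protein, had 6.90, 6.72 and 6.68 in miR328 and 7.13, 7.31 and 7.20 in NC arrays (-0.45 ± 0.0822 SE, adjusted p = 0.0171), with adjusted p of 0.054 and 0.0616 without NC arrays 2 and 3 and of 0.0707 and 0.0543 without miR328 arrays 2 and 3. The other 3 were UQCRHL at -0.20, UQCRB at -0.15 and UQCRQ at -0.04. UQCRHL is a near-identical copy of UQCRH, so its value may include UQCRH transcripts and is uncertain.

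**Figure D2:**
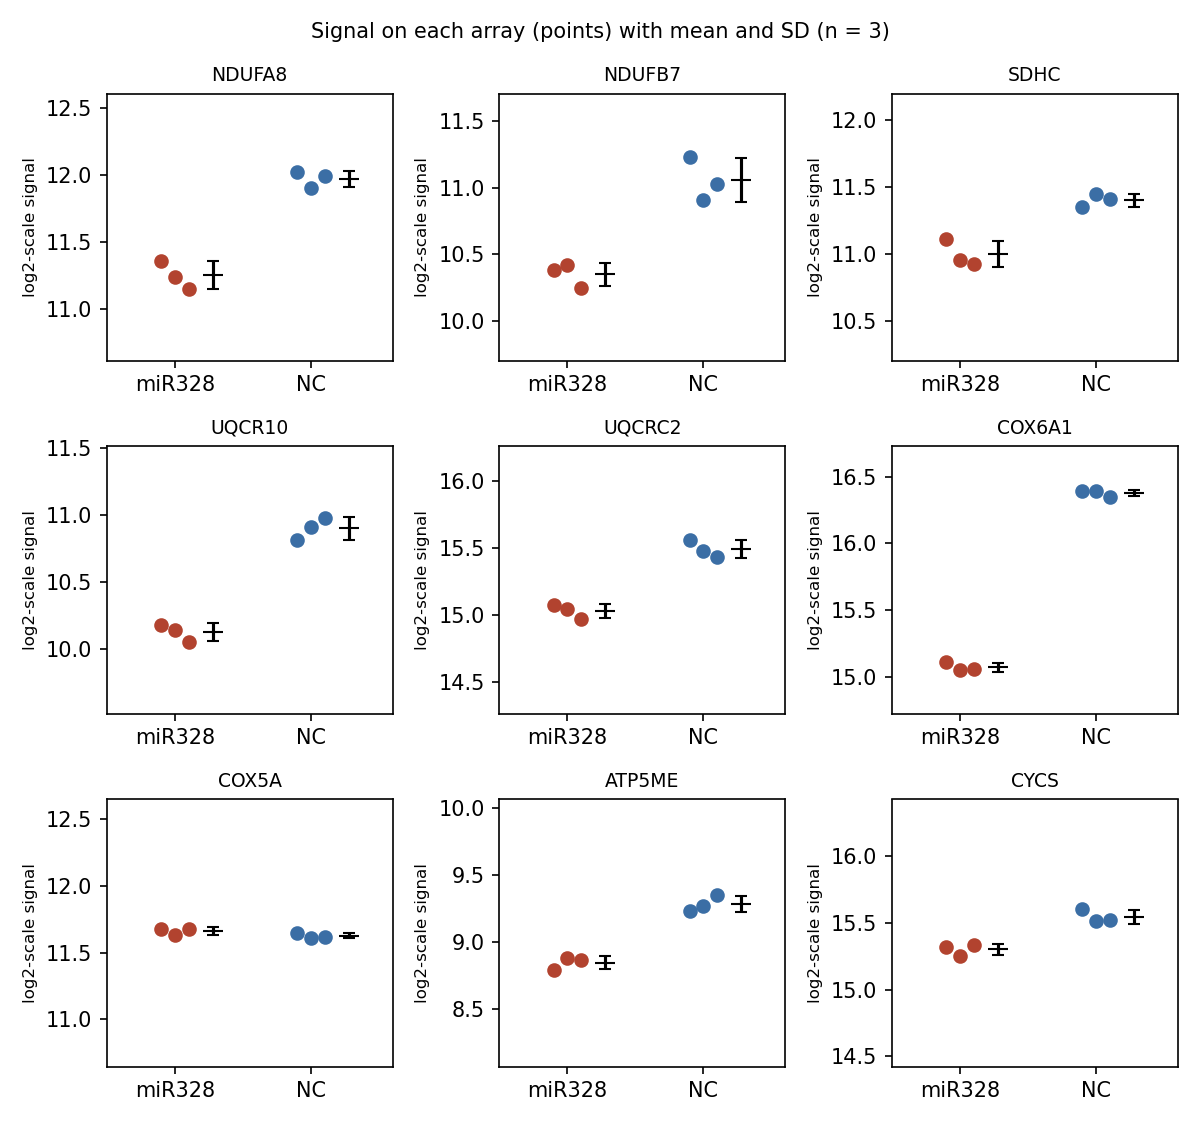
Log2-scale signal (y axis) on each array for 9 members, with miR328 arrays left of NC arrays, and the mean and SD of 3 arrays beside them. Each panel spans 2 log2 units. COX5A overlaps between groups at 11.63 to 11.68 in miR328 and 11.61 to 11.65 in NC arrays, and in the other 8 panels all miR328 points lie below all NC points.

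Cytochrome c, CYCS, carries electrons between complexes III and IV. It had 15.32, 15.25 and 15.33 in miR328 arrays, against 15.60, 15.51 and 15.52 in NC arrays. The groups did not overlap and the difference was small (-0.24 ± 0.0434 SE, 1.18-fold lower, adjusted p = 0.0152), with adjusted p of 0.0557 without NC array 3 and 0.0698 without miR328 array 2. HCCS, the enzyme that attaches heme to cytochrome c and c1, rose, with 12.92, 12.87 and 12.91 in miR328 and 12.55, 12.68 and 12.59 in NC arrays (0.29 ± 0.0455 SE, adjusted p = 0.00865). The carrier and its heme-attaching enzyme thus had differences of opposite sign.

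Complex IV, cytochrome c oxidase, held the largest fall among the members. Of 14 subunits, 13 were tested, of which 4 fell (30.8%, against 10.8% of all genes), none rose and 9 did not pass. Their median was -0.10. These 13 include 4 isoforms with a mean signal under 5 (COX4I2, COX6A2, COX7A1 and COX8C), and without them, a choice made after the values were seen, 4 of 9 fell (44.4%) and the median was -0.23. COX6A1, the ubiquitously expressed form of subunit 6A, had 15.11, 15.05 and 15.06 in miR328 arrays, against 16.39, 16.39 and 16.35 in NC arrays. The arrays within each group differed by less than 0.1, and COX6A1 was 2.47-fold lower (-1.31 ± 0.0368 SE, adjusted p = 4.56e-05). The probe set of its pseudogene COX6A1P2 had 14.08, 13.99 and 13.90 in miR328 and 15.33, 15.07 and 15.16 in NC arrays (-1.20 ± 0.0776 SE, adjusted p = 0.000394). The 2 sequences are close and either probe set may include transcripts of the other, so the share of each is uncertain.

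COX5B, a zinc-binding subunit on the matrix side, had 9.38, 9.32 and 9.14 in miR328 and 9.89, 9.69 and 9.73 in NC arrays (-0.49 ± 0.0814 SE, adjusted p = 0.0118). The groups did not overlap, though miR328 array 3 stood lower than the other two. COX7A2 had 9.69, 9.68 and 9.49 in miR328 and 10.03, 9.94 and 9.95 in NC arrays (-0.35 ± 0.0676 SE, adjusted p = 0.0202), with adjusted p of 0.0602, 0.053 and 0.0658 without NC arrays 1, 2 and 3 and 0.0518 without miR328 array 2. COX4I1, the common form of the regulatory subunit 4, had 13.58, 13.54 and 13.49 in miR328 and 13.81, 13.75 and 13.82 in NC arrays (-0.25 ± 0.0417 SE, adjusted p = 0.011), with adjusted p of 0.0549 without NC array 3 and 0.0522 without miR328 array 2. Subunits that did not pass included COX5A at 0.03, COX6B1 at -0.07, COX6C at -0.10, COX8A at -0.19 and COX7B at -0.23 (adjusted p = 0.1).

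Tissue-restricted and hypoxia-linked isoforms of complex IV had low signal. COX4I2, the form of subunit 4 known to be induced by low oxygen, had 4.24, 4.17 and 3.91 in miR328 and 3.83, 3.86 and 3.84 in NC arrays. These values straddle the array medians, the groups did not overlap, and the difference did not pass (0.26 ± 0.0985 SE, adjusted p = 0.16), although it did without miR328 array 3 (0.36, adjusted p = 0.0421). COX6A2, the muscle form of subunit 6A, had values from 4.33 to 4.56 and stood at -0.10. The muscle form COX7A1 stood at 0.11 and the testis form COX8C at 0.08 (-0.02 without miR328 array 2), both with values under 4.3, and COX7B2, with values from 3.28 to 3.54, was below the signal filter of 3.47 on its mean and was not tested. COXFA4, the complex IV subunit formerly named NDUFA4 and outside the symbol rule, had 10.38, 10.35 and 10.37 in miR328 and 10.21, 10.28 and 10.21 in NC arrays (0.13, adjusted p = 0.0988), and its hypoxia-induced relative COXFA4L2 stood at 0.18 with values from 4.70 to 5.05.

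Complex IV is assembled around its mitochondrially encoded core by factors of several kinds, among them some that insert heme and copper. Of 15 assembly factors of complex IV, 3 fell (20%, against 10.8% of all genes), none rose and 12 did not pass. Their median was -0.15. COA5, needed early in assembly, had 8.32, 8.25 and 8.15 in miR328 arrays, against 8.86, 8.67 and 8.74 in NC arrays (-0.51 ± 0.0703 SE, 1.43-fold lower, adjusted p = 0.00543). COX11, which delivers copper to a catalytic subunit, had 8.86, 8.78 and 8.85 in miR328 and 9.15, 9.20 and 9.28 in NC arrays (-0.38 ± 0.0526 SE, adjusted p = 0.0057). COA1, an early factor of the inner membrane, had 8.39, 8.42 and 8.33 in miR328 and 8.67, 8.72 and 8.72 in NC arrays (-0.32 ± 0.0471 SE, adjusted p = 0.00719). Groups were apart for all 3, and each call held whichever array was left out. COA3 had a larger difference, -0.60, but did not pass (adjusted p = 0.0706): its NC arrays were scattered at 7.57, 8.17 and 7.61, against 7.24, 7.05 and 7.27 in miR328 arrays. Without NC array 2 the difference was smaller and passed (-0.41, adjusted p = 0.0484). The copper chaperone COX17 had 8.69, 8.61 and 8.47 in miR328 and 8.40, 8.27 and 8.26 in NC arrays (0.28 ± 0.0727 SE, adjusted p = 0.0575). All 3 miR328 values were above the NC values, and it passed without miR328 array 3 (0.34, adjusted p = 0.0417). The heme synthesis enzymes COX10 and COX15 stood at -0.15 and -0.10, and COX7A2L, which joins complexes III and IV in supercomplexes, at 0.03 (-0.02 with arrays centred on their medians).

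Complex V, the ATP synthase, had 8 of 17 subunits that fell (47.1%, against 10.8% of all genes), none that rose and 9 that did not pass. Their median was -0.18. By part, 3 of 4 subunits of the peripheral stalk, 2 of 3 of the central stalk, 1 of 2 of the catalytic head, 1 of 3 of the c ring genes and 1 of 5 other membrane subunits fell. ATP5F1D, the delta subunit of the central stalk, had 11.37, 11.25 and 11.24 in miR328 arrays, against 11.87, 11.66 and 11.69 in NC arrays (-0.45 ± 0.0695 SE, 1.37-fold lower, adjusted p = 0.00858). ATP5ME, the membrane subunit e, had 8.79, 8.88 and 8.86 in miR328 and 9.23, 9.27 and 9.35 in NC arrays (-0.44 ± 0.0522 SE, adjusted p = 0.00315). Neither gene had any overlap between groups. ATP5PD, a peripheral stalk subunit, had 16.09, 16.01 and 16.02 in miR328 and 16.39, 16.36 and 16.37 in NC arrays (-0.33 ± 0.0374 SE, adjusted p = 0.00255).

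Among the 3 genes of subunit c, which encode the same mature protein, ATP5MC1 had 9.60, 9.63 and 9.61 in miR328 and 9.94, 9.98 and 10.05 in NC arrays (-0.38 ± 0.0461 SE, adjusted p = 0.00356). ATP5MC3 had 8.77, 8.70 and 8.63 in miR328 and 8.98, 8.90 and 8.83 in NC arrays (-0.21, adjusted p = 0.0887), and ATP5MC2 stood at -0.04 (adjusted p = 0.727). Only the first passed, and whether the 3 differed was not tested. ATP5PO, which ties the stalk to the catalytic head, fell by 0.32 (adjusted p = 0.00962). The remaining calls were smaller and less secure: the catalytic subunit ATP5F1B at -0.29, ATP5F1C of the central stalk at -0.23 and ATP5PB of the peripheral stalk at -0.16. ATP5F1B had adjusted p of 0.0672, 0.0879 and 0.0947 without NC arrays 1, 2 and 3 and 0.101 without miR328 array 2. ATP5F1C had 0.0683 and 0.117 without NC arrays 1 and 3 and 0.068, 0.124 and 0.0902 without miR328 arrays 1, 2 and 3. ATP5PB had 0.0769 and 0.118 without NC arrays 2 and 3 and 0.0698, 0.121 and 0.0815 without miR328 arrays 1, 2 and 3. Without NC array 3 or miR328 array 2, 5 complex V subunits fell. ATP5IF1, which blocks the enzyme from running in reverse, had 10.73, 10.83 and 10.74 in miR328 and 10.94, 10.74 and 10.87 in NC arrays (-0.08, adjusted p = 0.524). ATP5MGL at 0.01 is a close copy of ATP5MG and its value is uncertain.

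**Figure D3:**
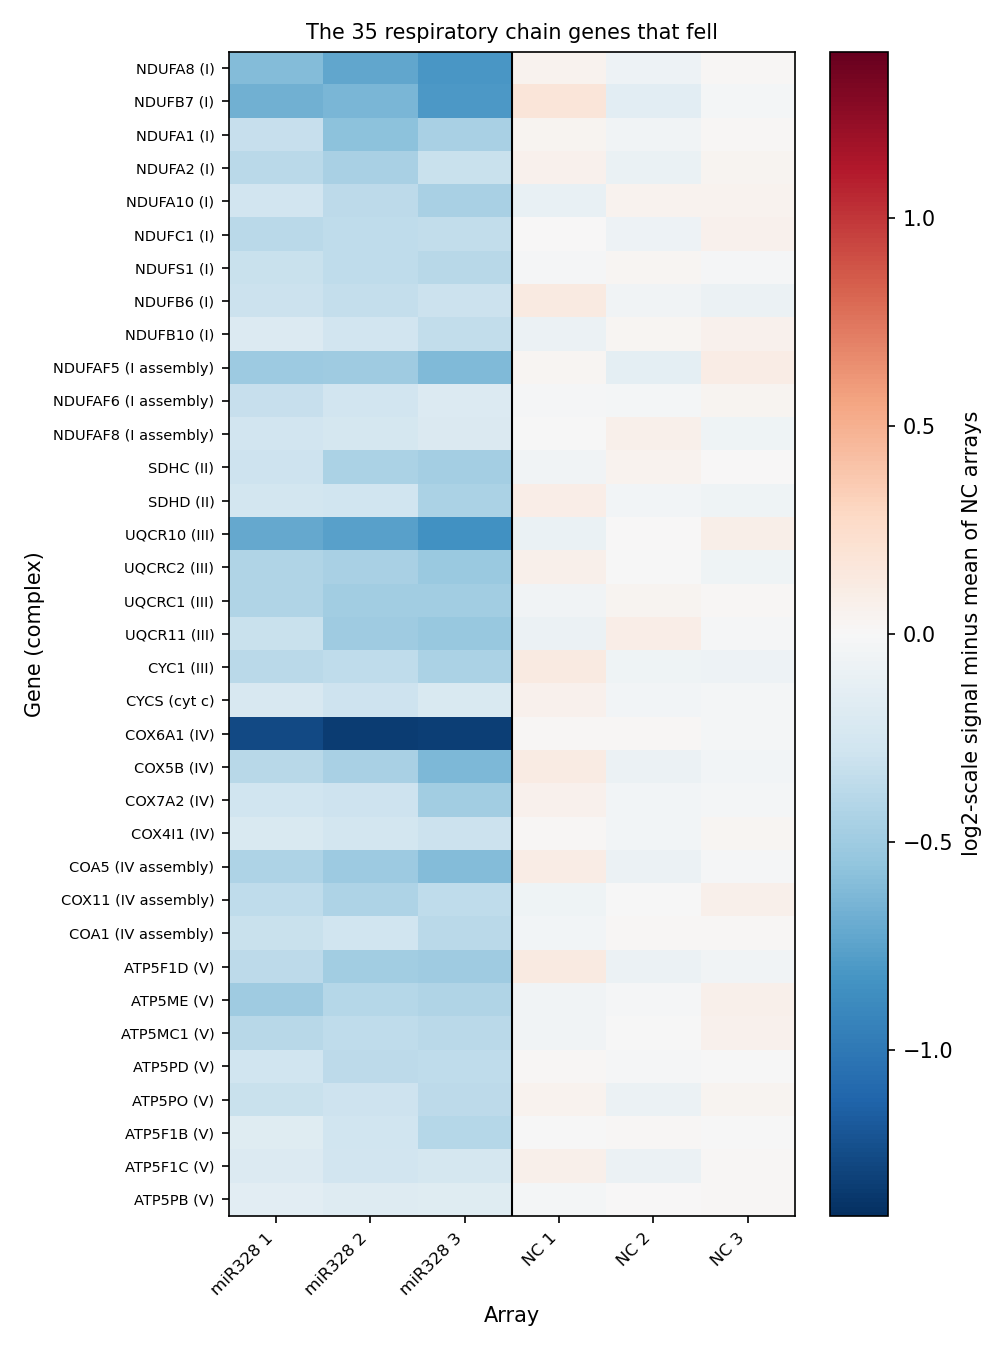
Log2-scale signal minus the mean of the NC arrays (colour) for the 35 members that fell (rows, by complex) on each array (columns, miR328 left of NC). Blue is lower, and the 3 miR328 columns are blue in every row, darkest for COX6A1. Only members that fell are shown, so lower miR328 values follow from how the rows were chosen.

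Subunits and assembly factors had similar median differences. Over all complexes 28 of 73 tested subunits (38.4%) and 6 of 27 assembly factors (22.2%) fell, against 10.8% of all genes. The medians were -0.19 for subunits and -0.15 for assembly factors. Subunits had a median signal of 9.91 and assembly factors one of 8.50. Among genes with a mean signal under 10, a split chosen after the values were seen, 11 of 39 subunits (28.2%) and 6 of 23 assembly factors (26.1%) fell, against 8.64% of all genes in that range. At 10 or more, 17 of 34 subunits (50%) and none of 4 assembly factors fell, against 23.5% of all genes. The difference between subunits and assembly factors was not tested.

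**Figure D4:**
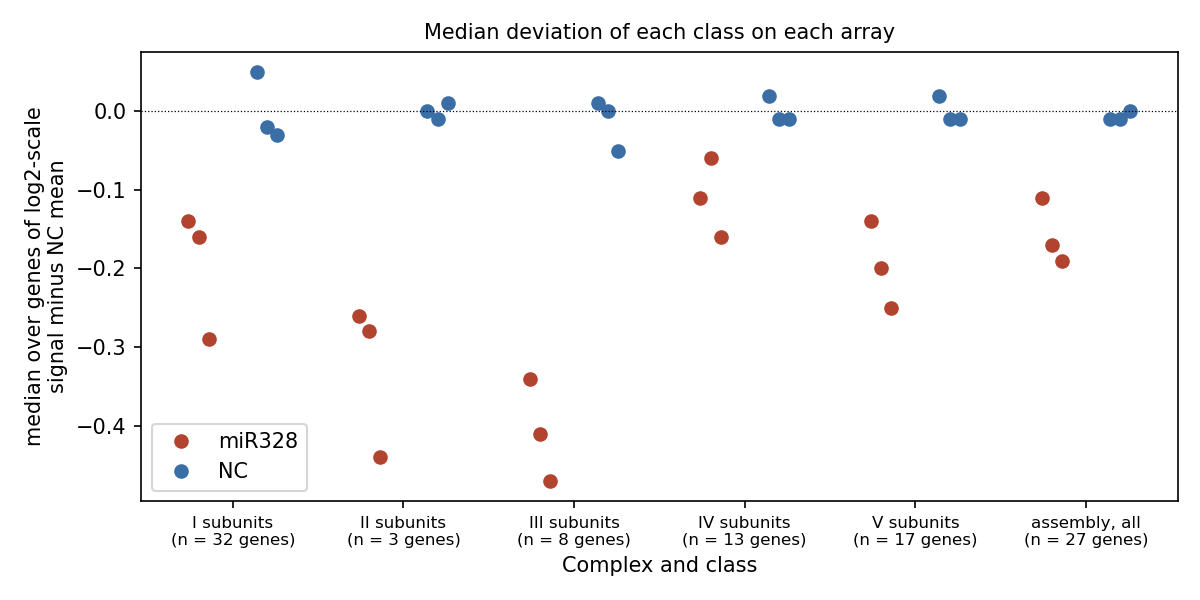
Median over the genes of each class of the log2-scale signal minus the NC mean (y axis) on each array, with miR328 points left of NC points. Points are arrays and n counts genes. Complex III subunits lie lowest, at -0.34, -0.41 and -0.47 in miR328 arrays.

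The same pattern was present on every miR328 array. The median deviation of the 73 subunits from their NC means was -0.15, -0.17 and -0.28 on the miR328 arrays and 0.03, -0.01 and -0.02 on the NC arrays. For the 27 assembly factors it was -0.11, -0.17 and -0.19 on the miR328 arrays and -0.01, -0.01 and -0.00 on the NC arrays. miR328 array 3 was the lowest in both classes and in each of the 5 sets of subunits. For complex IV subunits the medians were -0.11, -0.06 and -0.16 on the miR328 arrays and 0.02, -0.01 and -0.01 on the NC arrays. Without the 4 dim isoforms, left out after the values were seen, they were -0.16, -0.25 and -0.30 on the miR328 arrays. On the NC arrays they were then 0.04, -0.02 and -0.03. Of these isoforms COX4I2, COX7A1 and COX8C had log2 differences above zero, so leaving them out by itself pulls the median down. With all 13 tested subunits complex IV had the smallest displacement of the 5 complexes, a median of -0.10. Without the dim isoforms its median was -0.23, against -0.19 for complex I and -0.18 for complex V. The smallest displacement thus held only with the dim isoforms counted, and differences between complexes were not tested.

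Assembly factors whose symbols lay outside the rule were examined from a list drawn from general knowledge. Of 35 tested, 9 fell (25.7%, against 10.8% of all genes), 1 rose (2.86%, against 7.21%) and 25 did not pass, with a median of -0.11. LYRM7, which guides the Rieske iron-sulphur protein into complex III, had 9.44, 9.46 and 9.31 in miR328 and 9.99, 10.02 and 9.92 in NC arrays (-0.58 ± 0.0579 SE, adjusted p = 0.00169). HIGD2A, a supercomplex factor, had 13.43, 13.53 and 13.52 in miR328 and 13.91, 13.94 and 14.04 in NC arrays (-0.47 ± 0.0515 SE, adjusted p = 0.00239). Both held whichever array was left out. NUBPL, which inserts iron-sulphur clusters into complex I, fell by 0.39 (adjusted p = 0.032), with adjusted p of 0.0646, 0.089 and 0.111 without NC arrays 1, 2 and 3 and of 0.0901 and 0.112 without miR328 arrays 1 and 2. The gene that rose was HCCS, given above.

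Among 12 tested regulators of respiratory gene expression, 2 rose (16.7%, against 7.21% of all genes), 1 fell (8.33%, against 10.8%) and 9 did not pass, with a median of -0.00. With so few genes, whether these shares differ from those of all genes cannot be judged. YY1, a transcription factor, had 9.62, 9.60 and 9.61 in miR328 and 9.34, 9.28 and 9.39 in NC arrays (0.28 ± 0.0455 SE, adjusted p = 0.0111). TFAM, which packages and transcribes mitochondrial DNA, had 11.72, 11.91 and 11.89 in miR328 and 11.57, 11.59 and 11.60 in NC arrays (0.26 ± 0.058 SE, adjusted p = 0.037), with adjusted p of 0.0907, 0.0951 and 0.109 without NC arrays 1, 2 and 3 and of 0.126 and 0.103 without miR328 arrays 2 and 3. TFAM also did not pass with arrays centred on their medians (0.21, adjusted p = 0.0859), without the mean-variance trend (adjusted p = 0.0728), with quantile normalization (adjusted p = 0.06) or with the replicate block (adjusted p = 0.0576). SLIRP, which stabilises mitochondrial mRNAs, had 15.12, 15.02 and 15.07 in miR328 and 15.28, 15.39 and 15.42 in NC arrays (-0.29 ± 0.0518 SE, adjusted p = 0.0145), with adjusted p of 0.0505 and 0.0624 without NC arrays 2 and 3 and 0.0657 without miR328 array 2. Its partner LRPPRC stood at 0.12, GABPA at -0.18 and ESRRA at -0.05, and none of these passed. NRF1 was not analysed here.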

How the data were processed

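Each array has 1 deposited value for each of 70523 probe sets, taken here as log2. The base is inferred from the deposited values, which run from 1.62 to 19.9. Per the submitters' processing notes MAS5 was used, with no role or version. How values were normalized and summarized is not given in the sources used here. Per the labels' protocols RNA was amplified to biotin-labelled sense-strand DNA. Arrays have no read depth, and 3 arrays a group limit the precision.

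The 2995 control probe sets and the 25% of transcript clusters with the lowest mean were left out, and 50646 were tested with limma 3.58.1 in R 4.3.3 (lmFit, eBayes with a mean-variance trend, two-sided, Benjamini-Hochberg over all of them, threshold 0.05). Every adjusted p is from this test. An exact permutation test of 3 against 3 cannot go below 0.1 and was not used. The fit was tested on simulated data. Symbols came from the platform annotation, and all 103 members matched RefSeq symbols (GRCh38.p14). The 1 member below the filter was not tested.

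Members, lists and classes were chosen with earlier results of these data known. Genes named by rule were, per complex and class, up to 4 with the largest fall and 2 with the largest rise that passed without overlap of groups, or else the smallest p, isoform pairs of complexes IV and V, and the largest changes in the 2 other lists. All other genes were named after their values were seen. Alternatives were filter, scaling, moderation, replicate block, probe set rule and leaving out each array. Same-numbered arrays had deviations that correlated at 0.142, -0.0497 and 0.182, so the numbers were not taken as pairs. Motif matches and medians were computed in Python 3.11.15, and plots were made with matplotlib 3.10.9.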

Additional observations from a re-analysis of the deposited data

How the results depend on the processing

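Falling members numbered 35 as reported and between 30 and 39 under the 7 alternatives that kept all arrays. The share of all genes that fell was 10.8% as reported. Under these alternatives it lay between 8% (replicate block) and 16.4% (stricter filter on low signal). Members that rose numbered 1 in place of 0 under a stricter filter on low signal, with quantile normalization and with the replicate block, in each case the assembly factor COX17. Its log2 differences there were 0.28, 0.31 and 0.28. Without the mean-variance trend 5 complex V subunits fell in place of 8, and ATP5F1B, ATP5F1C and ATP5PB no longer passed (adjusted p = 0.0606, 0.0761 and 0.107). With arrays centred on their medians the median of assembly factors was -0.19 in place of -0.15. The median of all genes was then -0.032 in place of 0.010, as centring lowers every log2 difference by the same amount. The causes of the other changes were not tested. The replicate block, which was not taken as a pairing, gave 31 members that fell, of which 28 fell without it. NDUFAF6, NDUFAF8 and ATP5PB lost their calls under 3 of these 7 alternatives each, and NDUFB10 under 4.

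Leaving out 1 array, which leaves fewer samples, gave 2105 to 2704 changed genes over all genes, 22 to 31 members that fell and 0 to 2 that rose. The share of all genes that fell was then 6.75% to 8.28%, against 10.8% with all arrays. Subunits that fell numbered 18 to 24 and those that rose 0 to 1. Assembly factors that rose numbered 0 to 1. Falls numbered 1 to 2 for complex II, 2 to 4 for complex IV and 5 to 6 for complex V subunits. No call changed direction under these alternatives, but COX7A2L (0.03) and COX8C (0.08), which did not pass, were at -0.02 with centred arrays and without miR328 array 2. Of 47 genes named by rule, 14 changed call under at least 1 alternative. Signal near the array medians limits what the dim isoforms can show.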
